A study of Mus musculus with 8 samples.

Results

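Translation initiation and elongation factors were taken as the genes of the deposited gene table whose symbol begins with Eif1 to Eif6 or with Eef1 or Eef2, which gave 64 of 13101 genes. The rule used the symbol only and no measured value. It takes in the factors themselves, their kinases, their methyltransferases and their binding proteins, with 5 Eif1, 14 Eif2, 14 Eif3, 15 Eif4, 4 Eif5, 1 Eif6, 8 Eef1 and 3 Eef2 genes. Eif2ak2, Eif4ebp3, Eef1a2 and Eef1akmt3 were not analysed here.

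Protein synthesis starts when the small ribosomal subunit, carrying the initiator tRNA brought by eIF2 and held open by eIF1, eIF1A and eIF3, is led to an mRNA by the cap-binding complex of eIF4E, eIF4G and the helicase eIF4A. eIF2B recharges eIF2 with GTP after each round, and kinases that phosphorylate the alpha subunit of eIF2 block that step, while 4E-binding proteins keep eIF4E from eIF4G. eIF5 and eIF5B see the large subunit join, after which eEF1A delivers aminoacyl-tRNAs and eEF2 moves the ribosome along. Early embryos live at first on mRNAs stored in the oocyte, so that the translation machinery is at work before and during the onset of transcription from the embryonic genome.

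The RNA came from pools of mouse 2-cell embryos on the C57BL/6 background, 4 pools labelled Dux KO and 4 labelled wild type (WT), with 12 to 18 embryos in each pool, collected after timed matings. Dux encodes a double homeobox transcription factor that activates 2-cell-stage genes. The labels name no other allele or agent, and do not say how Dux was deleted, how many founder lines were used or whether pools came from separate parents, so that p-values measure the spread between pools. Polyadenylated RNA was amplified as cDNA with a low-input kit, and libraries were made with Nextera XT, a transposase-based kit.

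Each library held 12343369 to 14548526 gene reads, recovered as whole numbers from the deposited values, and translation factor genes took 1.21 to 1.44% of them in WT pools and 0.861 to 1.14% in those of Dux KO. No row for Dux itself was analysed here. MERVL-int, the internal part of a retrovirus that DUX activates, was at 11360 to 16381 FPM (fragments scaled to library size) in WT pools and at 4548 to 6050 in Dux KO pools, which do not overlap. All 14 listed markers of 2-cell embryos and oocytes were in the table, and their summed level was 5186 to 6355 FPKM in WT and 3866 to 4704 FPKM in Dux KO, mostly from Dppa3. Without Dppa3 the sum of the other 13 was 529 to 690.0 FPKM in WT and 605 to 957 FPKM in Dux KO. Dppa3, Zp3 and Zscan4f were called lower and Bmp15 higher, and the other 10 markers did not pass. Of 10 markers of cumulus and granulosa cells 5 were in the table, at a sum of 3.82 to 12.6 FPKM in WT and 7.09 to 23.1 FPKM in Dux KO, of which Cyp19a1 passed as higher. For the oviduct, 3 of 6 markers were in the table, at 130.8 to 149 FPKM in WT and 93.9 to 129 FPKM in Dux KO, mostly from Epcam, which fell, while Cdh1 rose. Without Epcam the sum of the other 2 was 4.83 to 15.0 FPKM in WT and 6.45 to 28.7 FPKM in Dux KO. The third marker, Ovgp1, did not pass and was highest in Dux KO replicate 2, at 22.0 FPKM. Spi1 was the sole blood marker of 6 in the table, at 0.242 to 1.69 and 0.59 to 2.35 FPKM, and none of 6 sperm markers was. The part of other cells in the results was not tested.

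Of the 64 translation factor genes, 27 were lower and 3 higher in Dux KO than in WT, and 34 did not pass the test. Genes were tested with limma on log2(FPKM + 1), where FPKM is a read level per kilobase of transcript scaled to library size, and called at an adjusted p under 0.05, over the 12434 genes whose mean reached 0.5 FPKM. All 64 were above that minimum. Over all genes tested, 18.1% were lower and 15.5% higher, against 42.2% and 4.69% of the translation factor genes. On recovered reads, edgeR called 28 of them lower and 4 higher (17.7% and 16.4% of all genes) and DESeq2 27 and 5 (19.5% and 18.9%), and the authors' deposited table gave 27 and 3 (18.6% and 16.2%). Their median log2 fold change was -0.40, beside -0.02 over all genes, and 51 of the 64 had a negative value. In 28 of them every Dux KO pool was below every WT pool, and in 4 every Dux KO pool was above, where 18.1% and 15% of all genes did so. In pooled embryos, fewer cells at a given state and less RNA per cell cannot be told apart.

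**Figure D1:**
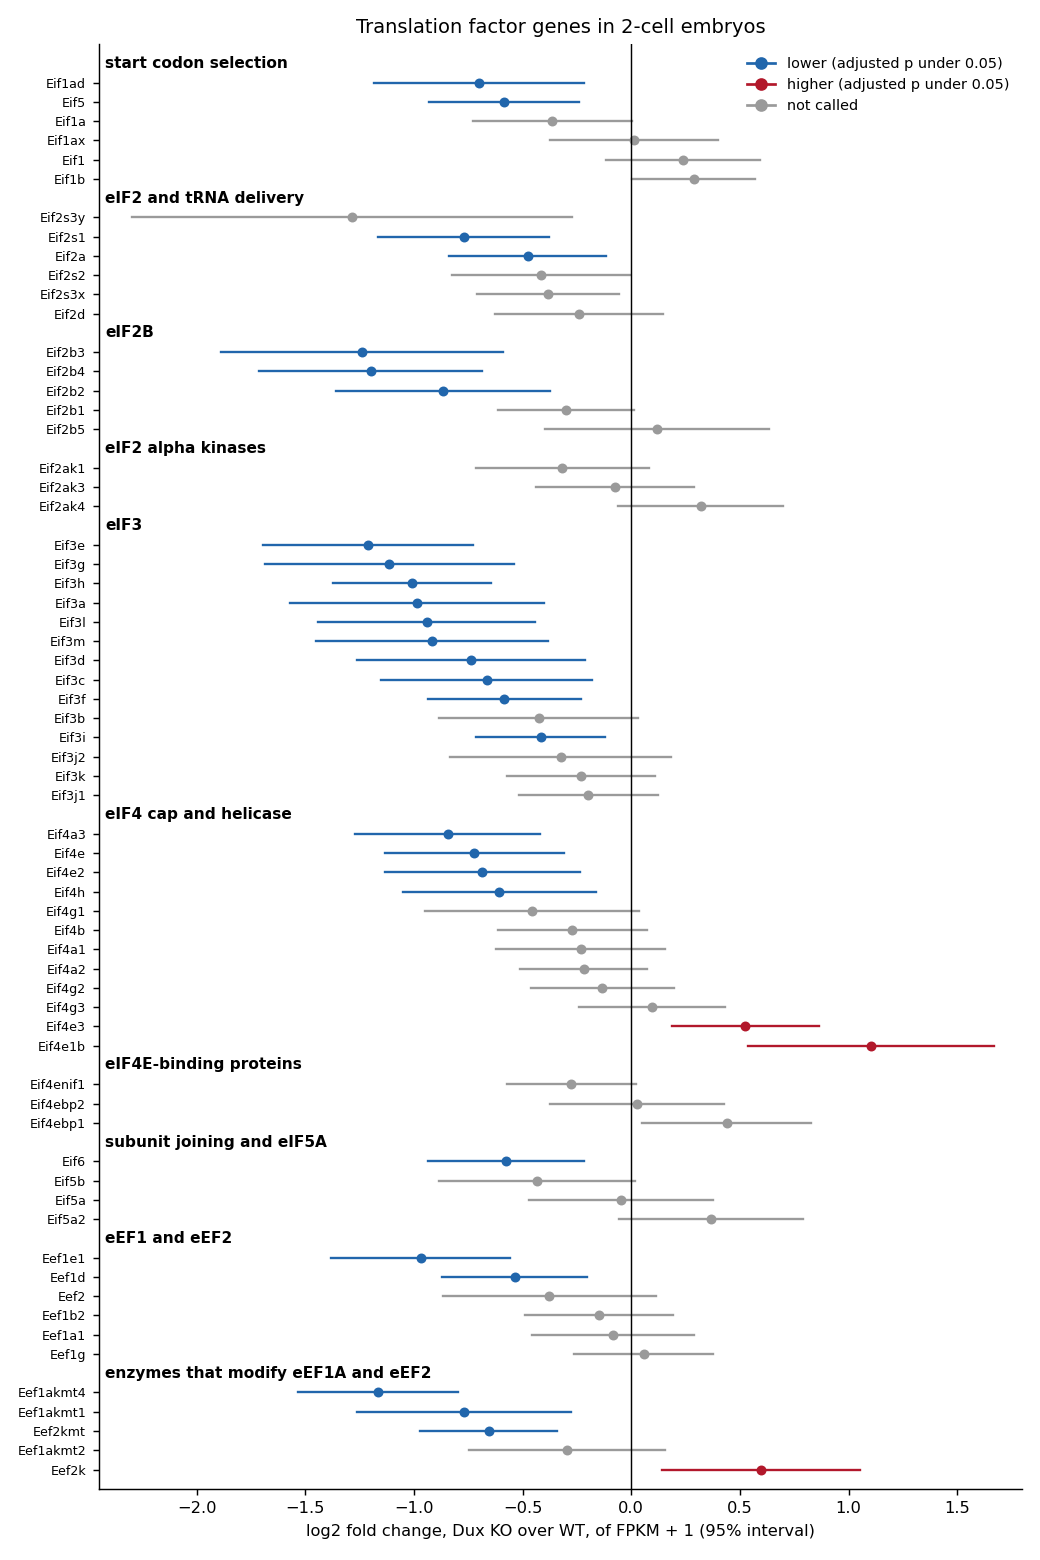
Log2 fold change of FPKM + 1, Dux KO over WT, of each of the 64 translation factor genes, grouped by role. Points are limma estimates and lines their 95% intervals, and colour marks the 27 lower, 3 higher and 34 uncalled genes. The eIF3 genes all lie below 0, and the 3 higher genes are Eif4e1b, Eif4e3 and Eef2k.

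eIF3, the large complex that holds the small subunit ready and binds the mRNA, had the most genes called of any factor. Of its 14 genes 10 fell (Eif3a, c, d, e, f, g, h, i, l and m), none rose, and 4 did not pass (Eif3b, j1, j2 and k). None was higher by edgeR or DESeq2 on recovered reads either, and 0 were higher at an unadjusted limma p under 0.05. The share lower was 71.4%, beside 18.1% of all genes tested. The median log2 fold change of the 14 was -0.70 and all 14 values were below 0, from -1.21 to -0.20. Summed over the complex, the level was 759, 739, 901 and 970.2 FPKM in WT replicates 1 to 4 and 477, 342, 602 and 529 FPKM in Dux KO replicates 1 to 4.

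Eif3e (ENSMUSG00000022336; chr15:43250058-43282719, minus strand, GRCm38), a subunit with a PCI domain, which builds the core of the complex, changed most of the 14. Eif3e was at 27.5, 24.7, 30.2 and 39.8 FPKM in WT pools 1 to 4 and 13.1, 7.88, 16.3 and 13.9 FPKM in Dux KO pools 1 to 4. The groups did not overlap, and Dux KO replicate 2 was lowest (log2 fold change -1.21, 95% interval -1.70 to -0.73, limma adjusted p = 0.00428). Eif3h (ENSMUSG00000022312; chr15:51786558-51865523, minus strand), an MPN-domain subunit of that core, fell by a similar amount. Eif3h was at 155, 151, 185 and 186 FPKM in WT pools 1 to 4 and 82.6, 66.3, 106 and 83.0 FPKM in Dux KO pools 1 to 4. All Dux KO pools were below all WT pools (log2 fold change -1.01, 95% interval -1.37 to -0.64, limma adjusted p = 0.00314). Another core subunit with a PCI domain was Eif3l (ENSMUSG00000033047; chr15:79075179-79094405, plus strand). Eif3l was at 34.4, 42.7, 54.7 and 54.7 FPKM in WT pools 1 to 4 and 24.99, 15.3, 32.5 and 23.8 FPKM in Dux KO pools 1 to 4. Here too the groups were apart, with WT replicates 1 and 2 the lowest of the WT pools (log2 fold change -0.94, 95% interval -1.44 to -0.44, limma adjusted p = 0.0116). Eif3m (ENSMUSG00000027170; chr2:104999656-105017080, minus strand), a further PCI-domain subunit, was less clear. Eif3m was at 74.4, 53.7, 75.4 and 83.6 FPKM in WT pools 1 to 4 and 35.5, 22.2, 50.1 and 47.7 FPKM in Dux KO pools 1 to 4. No pool overlapped, but WT replicate 2 was close to the highest Dux KO pool, and without WT replicate 4 (adjusted p = 0.0501) the call was lost (log2 fold change -0.92, 95% interval -1.45 to -0.38, limma adjusted p = 0.0170 with all pools).

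Eif3a (ENSMUSG00000024991; chr19:60761117-60790658, minus strand), the scaffold of the complex, fell to 50.2% of its WT mean. Eif3a was at 36.4, 39.9, 60.7 and 65.8 FPKM in WT pools 1 to 4 and 20.9, 15.4, 32.7 and 32.9 FPKM in Dux KO pools 1 to 4. The spread within each group was wide, with WT replicates 3 and 4 above WT replicates 1 and 2 and Dux KO replicate 2 lowest. The difference passed the test (log2 fold change -0.99, 95% interval -1.57 to -0.40, limma adjusted p = 0.0181), and the call was lost without WT replicate 4 or Dux KO replicate 1 (adjusted p = 0.0514 to 0.0551). Eif3g (ENSMUSG00000070319; chr9:20894349-20898623, minus strand), an RNA-binding subunit at the entry side of the mRNA channel, was the most abundant eIF3 gene. Eif3g was at 172, 160.4, 194 and 211 FPKM in WT pools 1 to 4 and 99.99, 45.6, 126 and 87.8 FPKM in Dux KO pools 1 to 4. Dux KO replicate 2 stood far below the other Dux KO pools, and replicate 3 came nearest to WT (log2 fold change -1.11, 95% interval -1.68 to -0.54, limma adjusted p = 0.0105). Of the other called subunits, Eif3c, Eif3d, Eif3f and Eif3i had log2 fold changes of -0.67, -0.74, -0.58 and -0.42. The call of Eif3c was lost without WT replicate 2, 3 or 4 or Dux KO replicate 1 or 2 (adjusted p = 0.0542 to 0.111), and that of Eif3i without WT replicate 1, 3 or 4 or Dux KO replicate 1 or 2 (adjusted p = 0.0576 to 0.101). Both were also lost with quantile normalization, Eif3c at log2 fold change -0.47, adjusted p = 0.103 and Eif3i at log2 fold change -0.16, adjusted p = 0.326. That of Eif3d was lost without WT replicate 4 or Dux KO replicate 1 or 2 (adjusted p = 0.0678 to 0.0910) and that of Eif3f without WT replicate 4 (adjusted p = 0.0595). Without Dux KO replicates 1 and 2 together, which leaves 2 Dux KO pools, 3 of the 10 calls held, those of Eif3e, Eif3g and Eif3h. All 10 held without Dux KO replicates 3 and 4 together, which also leaves 2 Dux KO pools.

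The uncalled eIF3 genes were not shown to be unchanged. Eif3k, a small PCI-domain subunit, was at 69.7 ± 3.09 FPKM for WT against 59.98 ± 10.8 FPKM for Dux KO (SD, n = 4 pools here and below; log2 fold change -0.23, 95% interval -0.57 to 0.11). Eif3b, another scaffold subunit, was at 17.3 ± 3.61 FPKM for WT against 12.7 ± 3.37 FPKM for Dux KO (limma adjusted p = 0.131, log2 fold change -0.43). Eif3j1 and Eif3j2 are near-identical copies of the loosely bound j subunit, at 4.95 and 0.908 FPKM over all pools. Of the 50-base stretches of Eif3j2, 90.8% also occur in Eif3j1, so that reads may have been split or shared between them. Neither passed (limma adjusted p = 0.306 and 0.288). The share of 50-base stretches found in other annotated transcripts was 20.3% for Eif3h and 17.2% for Eif3m. Exons of Eif3m also overlap Ccdc73, at 9.38 FPKM, on the opposite strand.

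**Figure D2:**
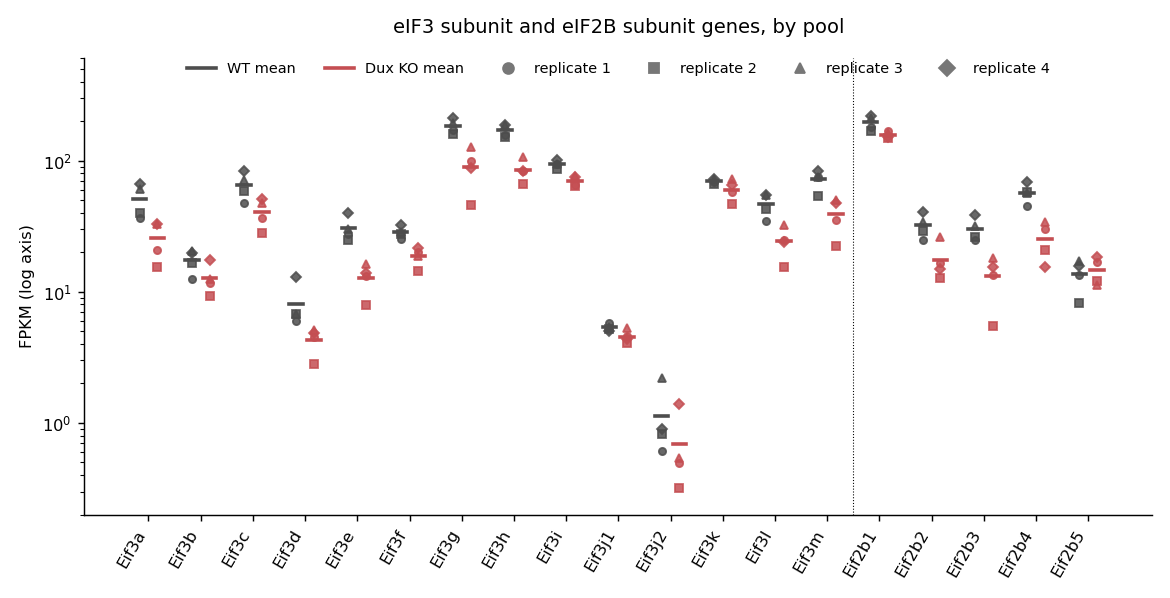
FPKM on a log axis of the 14 eIF3 genes and, right of the dotted line, the 5 eIF2B genes, with WT in grey and Dux KO in red. Marker shapes give the replicate and bars the group means. The Dux KO replicate 2 squares are the lowest of the 8 pools for most of the called genes.

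eIF2B, the exchange factor that recharges eIF2, had 3 of its 5 subunit genes lower and none higher, with 0 higher also by edgeR, by DESeq2 and at an unadjusted limma p under 0.05. The share lower was 60%, beside 18.1% of all genes tested. The called genes were Eif2b2, Eif2b3 and Eif2b4, while Eif2b1 and Eif2b5 did not pass. Eif2b3 (ENSMUSG00000028683; chr4:117019402-117087306, plus strand), the gamma subunit that forms the catalytic part with Eif2b5, fell most. Eif2b3 was at 24.8, 26.3, 31.6 and 38.4 FPKM in WT pools 1 to 4 and 13.4, 5.50, 18.0 and 15.4 FPKM in Dux KO pools 1 to 4. The groups did not overlap, and Dux KO replicate 2 was far below the rest (log2 fold change -1.24, 95% interval -1.89 to -0.59, limma adjusted p = 0.0111). Eif2b4 (ENSMUSG00000029145; chr5:31187558-31193430, minus strand), the delta subunit of the regulatory core, fell as much. Eif2b4 was at 44.8, 57.6, 56.8 and 68.5 FPKM in WT pools 1 to 4 and 30.1, 20.6, 34.1 and 15.5 FPKM in Dux KO pools 1 to 4. Every Dux KO pool was below every WT pool, and for this gene Dux KO replicate 4 was lowest (log2 fold change -1.20, 95% interval -1.71 to -0.69, limma adjusted p = 0.00539). Eif2b2, the beta subunit, was at 32.2 ± 6.91 FPKM for WT against 17.5 ± 5.92 FPKM for Dux KO, and its groups overlapped by a narrow margin, with Dux KO replicate 3 at 26.1 and WT replicate 1 at 24.8 FPKM (limma adjusted p = 0.0153, log2 fold change -0.87). Eif2b1, the alpha subunit, was the most abundant Eif2 gene. Eif2b1 was at 180.4, 169, 213 and 219.6 FPKM in WT pools 1 to 4 and 169, 148, 163 and 151 FPKM in Dux KO pools 1 to 4. All Dux KO pools were below all WT pools, by a narrow margin between Dux KO replicate 1 and WT replicate 2, and the difference did not pass (log2 fold change -0.30, 95% interval -0.61 to 0.01, limma adjusted p = 0.119). Eif2b5, the catalytic epsilon subunit, was at 13.6 ± 3.90 FPKM for WT against 14.7 ± 3.52 FPKM for Dux KO, with a wide interval on both sides of 0 (-0.39 to 0.63).

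The subunits of eIF2 itself, which carries the initiator tRNA, gave 1 call, as lower, among 4 genes. Over all genes tested, 18.1% were lower and 15.5% higher. Eif2s1 was at 118, 108, 129 and 125 FPKM in WT pools 1 to 4 and 79.4, 48.5, 83.3 and 73.3 FPKM in Dux KO pools 1 to 4. That gene encodes the alpha subunit, the target of the eIF2 kinases, and its groups did not overlap (log2 fold change -0.77, 95% interval -1.16 to -0.38, limma adjusted p = 0.0101). Eif2s2, the beta subunit, was at 39.96 ± 6.03 FPKM for WT against 30.04 ± 6.43 FPKM for Dux KO and did not pass (limma adjusted p = 0.105, log2 fold change -0.41). The gamma subunit has an X-linked and a Y-linked gene. Eif2s3x was at 1.32, 1.68, 1.89 and 1.49 FPKM in WT pools 1 to 4 and 1.01, 0.601, 1.13 and 1.26 FPKM in Dux KO pools 1 to 4. Eif2s3y was at 5.61, 13.53, 2.21 and 9.67 FPKM in WT pools 1 to 4 and 4.39, 1.86, 2.98 and 0.517 FPKM in Dux KO pools 1 to 4. For Eif2s3x every Dux KO pool was below every WT pool, and the levels of Eif2s3y spread widely within both groups. Eif2s3x rested on 36 to 89 reads per pool. Of its 50-base stretches 34.6% also occur in other annotated transcripts, so that its level depends on how shared reads were counted. The number of male embryos per pool is not given, so that for Eif2s3y the sex mix and the genotype cannot be told apart. Neither gene passed (limma adjusted p = 0.0661 and 0.0507). Eif2s3x was called lower with quantile normalization (log2 fold change -0.48, adjusted p = 0.0361). Eif2s3y was called lower by edgeR on recovered reads (edgeR adjusted p = 0.0315), without WT replicate 3 or Dux KO replicate 1 (adjusted p = 0.0154 to 0.0429), with quantile normalization (adjusted p = 0.0463) and among genes whose mean reached 5 FPKM (adjusted p = 0.0472).

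Of the factors that bring the initiator tRNA independently of eIF2, Eif2a fell and Eif2d did not pass. Eif2a was at 70.9 ± 8.41 FPKM for WT against 51.0 ± 8.49 FPKM for Dux KO (limma adjusted p = 0.0439, log2 fold change -0.48), and its call was lost without WT replicate 1, 3 or 4 or Dux KO replicate 1, 2 or 3 (adjusted p = 0.0552 to 0.103). It was also lost with median-of-ratios scaling (log2 fold change -0.44, adjusted p = 0.0521) and with quantile normalization (log2 fold change -0.26, adjusted p = 0.198). Exons of Eif2a overlap those of Serp1 on the other strand, a gene at 108 FPKM, and whether reads were counted by strand is not given. Eif2d was at 9.60 ± 1.24 FPKM for WT against 8.07 ± 1.6996 FPKM for Dux KO (limma adjusted p = 0.303, log2 fold change -0.24).

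The kinases of eIF2 alpha were at low levels, and none of the 3 in the table passed, in either direction, by limma, edgeR or DESeq2, with 0 at an unadjusted limma p under 0.05. Eif2ak1 (HRI, the heme-regulated kinase) was at 7.59 ± 1.77 FPKM for WT against 5.83 ± 0.853 FPKM for Dux KO, with a log2 fold change of -0.32 (95% interval -0.72 to 0.08). Its exons overlap Aimp2, at 106 FPKM, on the opposite strand. Eif2ak3 (PERK, the kinase of endoplasmic reticulum stress) was at 5.21 ± 0.491 FPKM for WT against 4.95 ± 1.04 FPKM for Dux KO (95% interval -0.44 to 0.29). Eif2ak4 (GCN2, the kinase of amino acid shortage) was at 1.81 ± 0.374 FPKM for WT against 2.52 ± 0.617 FPKM for Dux KO (95% interval -0.06 to 0.70). Adjusted p-values of the 3 were 0.187, 0.742 and 0.166 (limma).

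Factors of start codon selection differed among themselves. Eif1b, a close relative of Eif1, was the most abundant of them. Eif1b was at 171, 165, 176 and 188 FPKM in WT pools 1 to 4 and 213, 206, 208 and 228 FPKM in Dux KO pools 1 to 4. Each Dux KO pool was above each WT pool, but the difference did not pass (log2 fold change 0.29, 95% interval 0.01 to 0.57, limma adjusted p = 0.102). It was called higher by limma with quantile normalization (log2 fold change 0.52, adjusted p = 0.0117) and by DESeq2 on recovered reads (adjusted p = 0.0418). Eif1, the factor that opens the small subunit for scanning, was at 50.6 ± 5.91 FPKM for WT against 60.3 ± 11.3 FPKM for Dux KO and did not pass (limma adjusted p = 0.259, log2 fold change 0.24). Eif1a and Eif1ax both encode eIF1A, which works beside eIF1. Eif1a was at 70.0, 57.2, 82.0 and 71.1 FPKM in WT pools 1 to 4 and 60.6, 42.2, 60.5 and 54.2 FPKM in Dux KO pools 1 to 4. Eif1ax was at 30.8, 24.6, 28.5 and 23.6 FPKM in WT pools 1 to 4 and 21.6, 24.3, 28.0 and 35.9 FPKM in Dux KO pools 1 to 4. Both overlapped between the groups and did not pass, with log2 fold changes of -0.36 and 0.01 (limma adjusted p = 0.110 and 0.963). The sign of Eif1ax turned when WT replicate 2, WT replicate 4, Dux KO replicate 3 or Dux KO replicate 4 was left out.

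Eif5, which triggers GTP hydrolysis on eIF2 at the start codon, and Eif1ad, an eIF1A-like protein that in human cells acts in the last steps of small subunit assembly, both fell. Eif5 was at 176 ± 12.2 FPKM for WT against 118 ± 21.4 FPKM for Dux KO (limma adjusted p = 0.0179, log2 fold change -0.58) and Eif1ad at 44.3 ± 7.53 FPKM for WT against 27.6 ± 7.96 FPKM for Dux KO (limma adjusted p = 0.0316, log2 fold change -0.70). Both had groups that did not overlap. The call of Eif5 was lost without WT replicate 4 or Dux KO replicate 1 (adjusted p = 0.0548 to 0.0588), and that of Eif1ad without WT replicate 1 or 4 or Dux KO replicate 1 or 2 (adjusted p = 0.0547 to 0.0896). Both were also lost with quantile normalization, Eif5 at log2 fold change -0.33, adjusted p = 0.0942 and Eif1ad at log2 fold change -0.55, adjusted p = 0.0698. Eif1ad shares exon sequence on opposite strands with Banf1, a gene at 157 FPKM.

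Among the 4 cap-binding proteins of the eIF4E family, 2 fell and 2 rose, beside 18.1% lower and 15.5% higher of all genes tested. Eif4e (ENSMUSG00000028156; chr3:138526179-138559696, plus strand), the canonical cap-binding protein, was the most abundant Eif4 gene. Eif4e was at 201, 169, 214 and 226 FPKM in WT pools 1 to 4 and 126, 84.99, 138 and 148 FPKM in Dux KO pools 1 to 4. All Dux KO pools were below all WT pools (log2 fold change -0.72, 95% interval -1.13 to -0.31, limma adjusted p = 0.0159), and the call was lost with quantile normalization (log2 fold change -0.47, adjusted p = 0.0535). Eif4e2 (4EHP), a relative known as a repressor of translation, also fell. Eif4e2 was at 47.4, 40.9, 48.6 and 50.7 FPKM in WT pools 1 to 4 and 26.3, 19.3, 39.9 and 33.5 FPKM in Dux KO pools 1 to 4. Its groups nearly met, at WT replicate 2 and Dux KO replicate 3 (log2 fold change -0.68, 95% interval -1.13 to -0.24, limma adjusted p = 0.0263), and the call was lost without WT replicate 1, 3 or 4 or Dux KO replicate 1 (adjusted p = 0.0533 to 0.0688) and with quantile normalization (log2 fold change -0.52, adjusted p = 0.0633).

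Eif4e1b (ENSMUSG00000074895; chr13:54783998-54788459, plus strand), a form known from oocytes of mouse and other vertebrates, had the largest rise of the 64 genes. Eif4e1b was at 4.80, 4.72, 3.53 and 2.32 FPKM in WT pools 1 to 4 and 10.2, 14.4, 7.81 and 6.02 FPKM in Dux KO pools 1 to 4. The groups did not overlap, and Dux KO replicates 1 and 2 were highest (log2 fold change 1.10, 95% interval 0.54 to 1.67, limma adjusted p = 0.0104). Eif4e3 (ENSMUSG00000093661; chr6:99625135-99666771, minus strand), an atypical cap-binding relative, rose as well. Eif4e3 was at 34.3, 32.3, 38.6 and 30.6 FPKM in WT pools 1 to 4 and 42.6, 59.6, 43.7 and 52.3 FPKM in Dux KO pools 1 to 4. Dux KO replicates 2 and 4 were highest and no pool overlapped (log2 fold change 0.53, 95% interval 0.19 to 0.86, limma adjusted p = 0.0246). The call of Eif4e3 was lost without WT replicate 2 or 4 or Dux KO replicate 2 (adjusted p = 0.0512 to 0.0708). Exons of Eif4e3 overlap Gm20696, a protein-coding gene on the same strand with no value here.

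As shares of the summed FPKM of the 4 genes, Eif4e made up 68.4 to 73.0% in the WT pools and 47.7 to 61.8% in those of Dux KO. The share of Eif4e3 was 9.87 to 13.1% in WT pools and 19.0 to 33.4% in Dux KO pools, and that of Eif4e1b 0.751 to 1.92% and 2.504 to 8.06%. The share of Eif4e2 overlapped between the groups (16.0 to 16.6% and 10.8 to 17.4%). These shares describe the pools and were not tested.

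**Figure D3:**
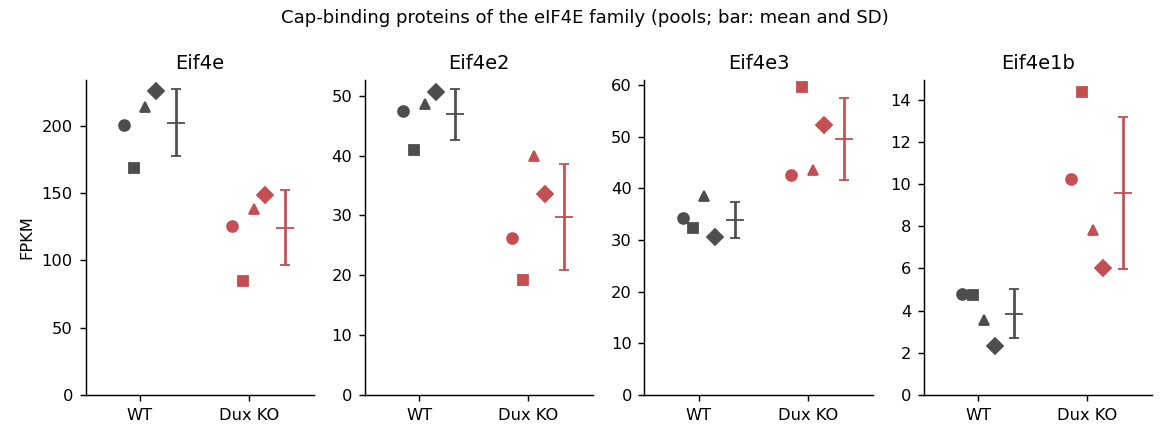
FPKM of Eif4e, Eif4e2, Eif4e3 and Eif4e1b in each pool, WT in grey and Dux KO in red, each panel on its own axis from 0. Marker shapes give the replicate as in the plot of eIF3 and eIF2B genes, and bars the mean and SD of 4 pools. Eif4e and Eif4e2 lie lower and Eif4e3 and Eif4e1b higher in Dux KO, with no overlap of pools.

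The helicases and scaffolds of the cap complex were mostly not called. Eif4a3, a relative of eIF4A known as a core part of the exon junction complex, was the exception among the helicases. Eif4a3 was at 138, 167, 198 and 190.1 FPKM in WT pools 1 to 4 and 89.4, 69.5, 123 and 107 FPKM in Dux KO pools 1 to 4. The groups were apart (log2 fold change -0.84, 95% interval -1.27 to -0.42, limma adjusted p = 0.00975). Eif4a1 and Eif4a2, the helicases of initiation, were at much lower levels, 6.76 ± 1.42 FPKM for WT against 5.56 ± 0.795 FPKM for Dux KO for Eif4a1 and 13.6 ± 0.711 FPKM for WT against 11.6 ± 0.529 FPKM for Dux KO for Eif4a2. Neither passed (limma adjusted p = 0.318 and 0.215), although every Dux KO pool was below every WT pool for Eif4a2. Eif4h, a helper of eIF4A, was at 14.01 ± 3.87 FPKM for WT against 8.70 ± 1.46 FPKM for Dux KO and fell, with limma adjusted p = 0.0393, log2 fold change -0.61. Its groups overlapped and the call was lost without WT replicate 3 or 4 or Dux KO replicate 1 or 2 (adjusted p = 0.0884 to 0.113) and with quantile normalization (log2 fold change -0.53, adjusted p = 0.0575). Eif4b, the other such helper, was at 13.8 ± 2.46 FPKM for WT against 11.1 ± 0.333 FPKM for Dux KO (limma adjusted p = 0.189, log2 fold change -0.27).

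Of the eIF4G scaffolds, Eif4g2 (DAP5), which lacks the eIF4E-binding part, was far above its relatives. Eif4g2 was at 89.6, 94.8, 99.0 and 107 FPKM in WT pools 1 to 4 and 83.6, 80.4, 82.3 and 112 FPKM in Dux KO pools 1 to 4. Its groups overlapped, with Dux KO replicate 4 highest of all pools (log2 fold change -0.13, 95% interval -0.46 to 0.19, limma adjusted p = 0.499). Eif4g1 was at 13.4 ± 4.503 FPKM for WT against 9.18 ± 1.54 FPKM for Dux KO (limma adjusted p = 0.131, log2 fold change -0.46) and Eif4g3 at 1.91 ± 0.283 FPKM for WT against 2.11 ± 0.3795 FPKM for Dux KO (limma adjusted p = 0.641, log2 fold change 0.10). The sign of Eif4g2 turned with quantile normalization.

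None of the 3 eIF4E-binding proteins passed by limma, with 1 higher and 0 lower at an unadjusted p under 0.05. Eif4ebp1 was at 40.1, 29.7, 39.96 and 43.9 FPKM in WT pools 1 to 4 and 66.6, 41.8, 51.5 and 50.6 FPKM in Dux KO pools 1 to 4. The protein is the main mTOR-controlled inhibitor of eIF4E, and its groups overlapped (log2 fold change 0.44, 95% interval 0.05 to 0.83, limma adjusted p = 0.0751). Eif4ebp1 was called higher by edgeR and DESeq2 on recovered reads (edgeR adjusted p = 0.0480, DESeq2 0.0359), with quantile normalization (limma adjusted p = 0.0201) and without Dux KO replicate 2 (adjusted p = 0.0421). Eif4ebp2 was at 3.12 ± 0.366 FPKM for WT against 3.26 ± 0.938 FPKM for Dux KO (limma adjusted p = 0.919, log2 fold change 0.03), and its sign turned without WT replicate 1, Dux KO replicate 1 or Dux KO replicate 4. Eif4enif1, which binds eIF4E and takes it into the nucleus and into oocyte granules, was at 32.1 ± 0.803 FPKM for WT against 26.5 ± 3.11 FPKM for Dux KO (limma adjusted p = 0.131, log2 fold change -0.28).

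Of the factors around subunit joining and of eIF5A, 1 fell and 3 did not pass (25% lower, beside 18.1% of all genes tested). Eif6 (ENSMUSG00000027613; chr2:155819832-155826925, minus strand), which keeps the free large subunit from joining, fell. Eif6 was at 185, 172, 247 and 228 FPKM in WT pools 1 to 4 and 152, 115, 151 and 137 FPKM in Dux KO pools 1 to 4. The groups did not overlap (log2 fold change -0.58, 95% interval -0.94 to -0.22, limma adjusted p = 0.0221), and the call was lost without WT replicate 3 or 4 (adjusted p = 0.0577 to 0.0654) and with quantile normalization (log2 fold change -0.34, adjusted p = 0.0931). Eif5b, the GTPase of subunit joining, was at 37.0 ± 7.06 FPKM for WT against 27.5 ± 7.27 FPKM for Dux KO (limma adjusted p = 0.121, log2 fold change -0.43). Eif5a, the hypusine-bearing factor that helps the ribosome over difficult peptide bonds, was the most abundant of the 64 genes, ranked 156 among the genes tested. Eif5a was at 212, 216, 326 and 301 FPKM in WT pools 1 to 4 and 270.3, 302, 243 and 197 FPKM in Dux KO pools 1 to 4. The groups overlapped, with WT replicate 3 highest (log2 fold change -0.05, 95% interval -0.47 to 0.38, limma adjusted p = 0.860), and the sign turned in 3 of the 8 fits that left out 1 pool. Its relative Eif5a2 was at 12.4 ± 3.12 FPKM for WT against 16.1 ± 3.23 FPKM for Dux KO and made up 3.59 to 4.96% of the summed FPKM of the pair in WT and 4.15 to 7.48% in Dux KO.

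Of the 6 genes named for eEF1 and eEF2, apart from the enzymes that modify them, Eef1e1 and Eef1d fell and 4 did not pass. The share lower was 33.3%, beside 18.1% of all genes tested. Eef1e1 (ENSMUSG00000001707; chr13:38644207-38659058, minus strand), also known as AIMP3, is a small protein of the multi-synthetase complex. It is counted here by its name and not as an elongation factor. Eef1e1 was at 120.2, 88.8, 109 and 123 FPKM in WT pools 1 to 4 and 55.9, 39.4, 66.6 and 64.1 FPKM in Dux KO pools 1 to 4. All Dux KO pools were below all WT pools, with replicate 2 lowest (log2 fold change -0.97, 95% interval -1.38 to -0.56, limma adjusted p = 0.00526). Eef1d, the delta subunit of the exchange factor of eEF1A, was at 13.7 ± 2.07 FPKM for WT against 9.06 ± 0.707 FPKM for Dux KO (limma adjusted p = 0.0218, log2 fold change -0.54), with a call lost without WT replicate 4 or Dux KO replicate 1 (adjusted p = 0.0651 to 0.0674). Exons of Eef1d overlap Naprt on the same strand, at 0.938 FPKM. Eef1a1, which delivers aminoacyl-tRNAs, was at 42.9 FPKM over all pools. Eef1a1 was at 36.4, 39.8, 53.5 and 47.2 FPKM in WT pools 1 to 4 and 49.9, 35.3, 37.2 and 44.0 FPKM in Dux KO pools 1 to 4. The groups overlapped (log2 fold change -0.08, 95% interval -0.46 to 0.29, limma adjusted p = 0.716), and the sign turned without WT replicate 3. Of its 50-base stretches 37.6% also occur in other annotated transcripts, so that its level depends on how shared reads were counted. Eef2, the translocase, was at 15.4 ± 6.09 FPKM for WT against 11.1 ± 1.27 FPKM for Dux KO (limma adjusted p = 0.203, log2 fold change -0.38). Eef1b2 and Eef1g, the other exchange factor subunits, had log2 fold changes of -0.15 and 0.06 and did not pass (limma adjusted p = 0.466 and 0.770). Of the 50-base stretches of Eef1g, 44.2% also occur in other annotated transcripts, and Eef1g rested on 46 to 86 reads per pool.

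Of 5 enzymes that modify eEF1A or eEF2, 3 methyltransferases fell and the kinase Eef2k rose. These were 60% lower and 20% higher, beside 18.1% and 15.5% of all genes tested. Eef1akmt4 (ENSMUSG00000115219; chr16:20611593-20619011, plus strand), a lysine methyltransferase of eEF1A, had the smallest adjusted p of the 64 genes. Eef1akmt4 was at 58.6, 57.8, 61.0 and 61.7 FPKM in WT pools 1 to 4 and 30.6, 20.1, 32.6 and 23.0 FPKM in Dux KO pools 1 to 4. The lowest WT pool was well above the highest Dux KO pool (log2 fold change -1.17, 95% interval -1.53 to -0.80, limma adjusted p = 0.00212). Its exons overlap those of Alg3 on the opposite strand, at 19.6 FPKM. They also overlap Gm49333, a protein-coding gene on the same strand with no value here. Eef1akmt1 (ENSMUSG00000021951; chr14:57549597-57571612, minus strand), another lysine methyltransferase of eEF1A, was far more abundant. Eef1akmt1 was at 306, 246, 329 and 325 FPKM in WT pools 1 to 4 and 180.4, 109.8, 196 and 245 FPKM in Dux KO pools 1 to 4. No pool overlapped, and Dux KO replicate 2 was lowest (log2 fold change -0.77, 95% interval -1.26 to -0.28, limma adjusted p = 0.0243), with a call lost without WT replicate 1, 3 or 4 or Dux KO replicate 1 (adjusted p = 0.0512 to 0.0637) and with quantile normalization (log2 fold change -0.58, adjusted p = 0.0512). Eef2kmt, a methyltransferase of eEF2, was the least abundant member at 1.302 ± 0.354 FPKM for WT against 0.454 ± 0.159 FPKM for Dux KO (limma adjusted p = 0.00835, log2 fold change -0.66). Its reads were 11 to 60 per pool, and the log2 fold change on recovered reads, with no FPKM pseudocount, was -1.50 by edgeR and -1.50 by DESeq2. Its mean in Dux KO was 34.9% of that in WT. Exons of Eef2kmt overlap those of Alg1, at 1.63 FPKM, and of Gm15983, at 0.661 FPKM, both on the opposite strand. Eef1akmt2 was at 12.2 ± 3.13 FPKM for WT against 9.67 ± 1.93 FPKM for Dux KO and did not pass (limma adjusted p = 0.274, log2 fold change -0.30).

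Eef2k (ENSMUSG00000035064; chr7:120842831-120907450, plus strand) phosphorylates eEF2 and so slows elongation. Eef2k was at 1.68, 1.47, 1.78 and 1.28 FPKM in WT pools 1 to 4 and 2.68, 4.94, 2.15 and 2.18 FPKM in Dux KO pools 1 to 4. No pool overlapped, but the margin was narrow and Dux KO replicate 2 was highest (log2 fold change 0.60, 95% interval 0.14 to 1.05, limma adjusted p = 0.0457). The call was lost without WT replicate 1, 2, 3 or 4 or Dux KO replicate 1 or 2 (adjusted p = 0.0611 to 0.110) and with quantile normalization (log2 fold change 0.52, adjusted p = 0.0815). On recovered reads, with no FPKM pseudocount, the log2 fold change was 0.98 by edgeR and 0.97 by DESeq2.

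The pools were not alike within a group. Dux KO replicate 2 was the lowest of the 8 pools for 42 of the 64 genes and for 25 of the 27 called lower, and WT replicate 4 was the highest for 31 and 22 of them. Measured against the WT mean of each gene, the median over the 64 genes was -0.09, -0.13, 0.09 and 0.15 in WT replicates 1 to 4 and -0.45, -0.62, -0.30 and -0.30 in Dux KO replicates 1 to 4 (log2). Each Dux KO pool was thus below each WT pool in this median, and replicate 2 lowest. Without WT replicate 4, 13 members were lower and 1 was higher, beside 1346 and 1176 of all 12434 genes, against 2249 and 1933 with all pools. Without Dux KO replicate 1 they were 17 and 2, beside 1420 and 1262 of all genes. Without WT replicate 2 they were 26 and 1, beside 1928 and 1628 of all genes. Without Dux KO replicates 1 and 2 together they were 7 and 0, beside 443 and 352 of all genes. In that fit 3 members were higher at an unadjusted limma p under 0.05, and the median of the 64 genes was -0.28. Without Dux KO replicates 3 and 4 together, which also leaves 2 Dux KO pools, 27 members were lower and 2 higher. Of all genes 2102 and 1842 were then called, and the median of the 64 genes was -0.54.

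**Figure D4:**
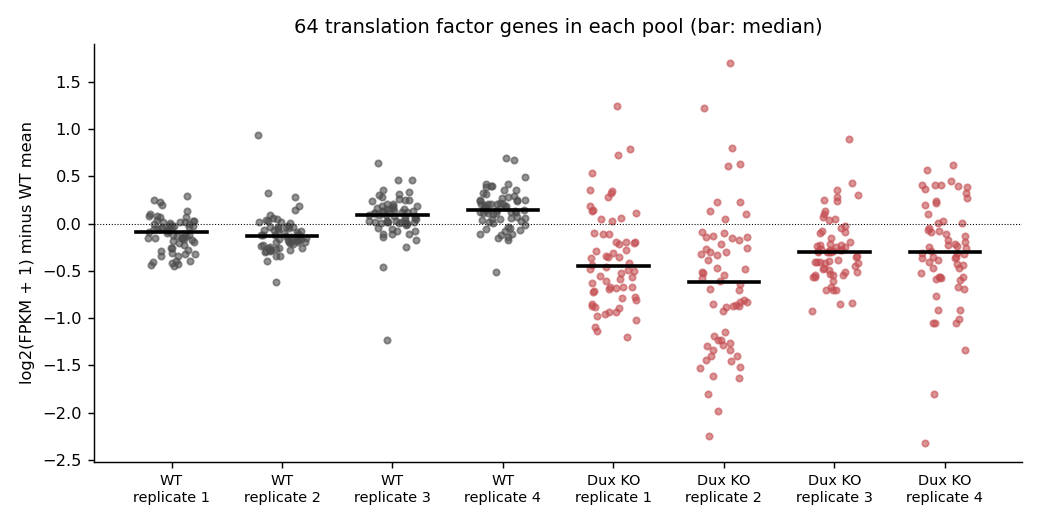
Log2(FPKM + 1) of the 64 translation factor genes in each pool, as the difference from the gene's mean over the 4 WT pools. Points are genes and bars the median of each pool. The medians lie between -0.13 and 0.15 for WT pools and between -0.62 and -0.30 for Dux KO pools.

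Calls varied with the level of a gene. Of members with a mean of 0.5 to 5 FPKM, 1 of 9 was lower (8.60% of all genes at that level), and of those at 5 to 20 FPKM, 3 of 17 (21.5%). At 20 to 100 FPKM 16 of 28 members were lower, beside 32.7% of all genes, and at 100 FPKM and over 7 of 10, beside 40.6%. Among genes whose mean reached 5 FPKM, 27 of 55 members were lower and 2 higher, beside 29.1% and 16% of all genes, and the medians were -0.43 and -0.18.

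**Figure D5:**
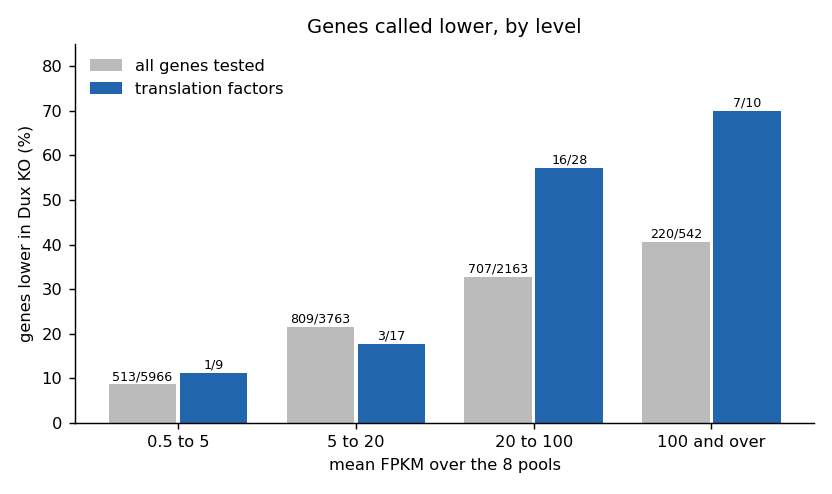
Share of genes called lower in Dux KO in 4 ranges of mean FPKM, for all genes tested (grey) and translation factor genes (blue), with called and tested numbers above each bar. Below 20 FPKM neither colour is taller in both ranges, and from 20 FPKM up the blue bars are taller.

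Genes that work with these factors but do not carry their names were counted from 7 lists. Of 104 listed genes 94 were tested, of which 24 fell and 6 rose, with a median log2 fold change of -0.18, beside 18.1% and 15.5% of all genes. Modification of eIF5A and eEF2 had the largest share, with 6 of 10 lower and 1 higher. Dph5, of the diphthamide pathway that modifies eEF2, fell and was at 3.68 ± 0.879 FPKM for WT against 1.06 ± 0.212 FPKM for Dux KO, with limma adjusted p = 0.00227, log2 fold change -1.17. Dhps, which makes the first step of hypusine on eIF5A, fell and was at 36.9 ± 2.98 FPKM for WT against 18.3 ± 3.13 FPKM for Dux KO, with limma adjusted p = 0.00282, log2 fold change -0.98. Dph6, the last enzyme of the diphthamide pathway, rose (limma adjusted p = 0.0323, log2 fold change 0.62), with a call lost without WT replicate 1, 2, 3 or 4 or Dux KO replicate 2 or 3 (adjusted p = 0.0549 to 0.0802).

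Small subunit helpers and initiation regulators had 6 of 13 genes lower and none higher, with 0 higher also by edgeR, by DESeq2 and at an unadjusted limma p under 0.05. The share lower was 46.2%, beside 18.1% of all genes tested. Bzw1 and Bzw2, eIF5-mimic proteins that bind eIF2, both fell. Bzw1 was at 261 ± 6.14 FPKM for WT against 146 ± 24.1 FPKM for Dux KO, with limma adjusted p = 0.00379, log2 fold change -0.85. Bzw2 was at 11.5 ± 2.84 FPKM for WT against 5.53 ± 1.49 FPKM for Dux KO, with limma adjusted p = 0.00867, log2 fold change -0.94. In the list of the response to eIF2 alpha phosphorylation, 2 of 12 genes fell and none rose by limma, edgeR or DESeq2, with 1 higher at an unadjusted limma p under 0.05. The share lower, 16.7%, was near the 18.1% of all genes tested. Ppp1r15a (GADD34), which brings a phosphatase to eIF2 alpha, was at 53.7 ± 8.17 FPKM for WT against 27.8 ± 3.23 FPKM for Dux KO (limma adjusted p = 0.00369, log2 fold change -0.92). Nck1, an adaptor, was at 12.5 ± 2.39 FPKM for WT against 8.23 ± 1.67 FPKM for Dux KO (limma adjusted p = 0.0420, log2 fold change -0.55), with a call lost without WT replicate 1, 3 or 4 or Dux KO replicate 1 or 4 (adjusted p = 0.0563 to 0.118), with median-of-ratios scaling (log2 fold change -0.51, adjusted p = 0.0555) and with quantile normalization (log2 fold change -0.48, adjusted p = 0.0719).

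Of 23 genes of mTOR and cap-binding control, 5 fell and 1 rose (21.7% and 4.35%, beside 18.1% and 15.5% of all genes). Ppm1g, a phosphatase that acts on 4E-BP1, was at 32.8 ± 11.0 FPKM for WT against 16.5 ± 5.17 FPKM for Dux KO (limma adjusted p = 0.0233, log2 fold change -0.95), with a call lost without WT replicate 3 or 4 (adjusted p = 0.0525 to 0.0674). Larp1, which binds mRNAs of ribosomal proteins and of many translation factors, was at 7.57 ± 1.83 FPKM for WT against 3.57 ± 1.304 FPKM for Dux KO (limma adjusted p = 0.0144, log2 fold change -0.93), and Rps6ka3 (RSK2), a kinase, rose (limma adjusted p = 0.0280, log2 fold change 0.51), with a call lost without WT replicate 2 or 4 or Dux KO replicate 2 or 3 (adjusted p = 0.0533 to 0.0739). Of 10 poly(A)-binding proteins and partners, Paip1, which joins poly(A)-binding protein to eIF4A, was alone called by limma, from 21.8 ± 4.42 up to 37.6 ± 11.1 FPKM (limma adjusted p = 0.0204, log2 fold change 0.74), with a call lost without WT replicate 4 (adjusted p = 0.0616). Of that list 0% were lower and 10% higher, beside 18.1% and 15.5% of all genes.

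In termination, recycling and rescue, 2 of 12 genes fell (N6amt1, a methyltransferase of the release factor, and Nemf, of ribosome quality control) and 2 rose (Hbs1l, of ribosome rescue, and Gtpbp1). Their adjusted p-values were 0.0485, 0.0274, 0.0301 and 0.0416 (limma), and each call was lost in at least 5 of the 8 fits that left out 1 pool. That of Gtpbp1 was also lost with quantile normalization (log2 fold change 0.36, adjusted p = 0.0853), and that of N6amt1 with median-of-ratios scaling, a pseudocount of 0.1 or no filter (adjusted p = 0.0503 to 0.0585). Of the termination, recycling and rescue genes 16.7% were lower and 16.7% higher, beside 18.1% and 15.5% of all genes. Of 14 mitochondrial and specialised factors 3 fell and 1 rose (21.4% and 7.14%). Sbds, which releases eIF6 from the large subunit, was at 96.3 ± 9.11 FPKM for WT against 56.6 ± 9.43 FPKM for Dux KO (limma adjusted p = 0.00631, log2 fold change -0.77), beside the fall of Eif6. Secisbp2, a binding protein of selenoprotein mRNAs, fell (limma adjusted p = 0.00680, log2 fold change -0.80) and Tsfm, a mitochondrial elongation factor, rose (limma adjusted p = 0.0261, log2 fold change 0.56), with a call lost without WT replicate 1, 3 or 4 or Dux KO replicate 1 or 3 (adjusted p = 0.0555 to 0.0730).

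Promoter sequences were read for the members because many moved together, and 50 of the 64 matched an entry in the RefSeq table (GRCm38.p6, 250 bases before to 50 bases after the annotated start). Some genes had several annotated starts, which gave 65 windows for the 50 members. A gene was counted as holding a word where any of its windows did. Eef1akmt1, Eef1d, Eef1g, Eif1a, Eif2b3, Eif3e, Eif3h, Eif3i, Eif3j2, Eif4e1b, Eif4e3, Eif4ebp1, Eif4g2 and Eif6 had no entry. The word CCGGAAG, searched on both strands and known as the core of sites of the ETS family of factors, was in 17 of 50 member promoters. It was in 9 of the 20 lower members, 8 of the 29 uncalled and 0 of 1 higher. Of all 9116 tested genes with an entry, 20.8% held it, and of lower and higher genes 29.7% and 11.2%. The word and those that follow were chosen after the data were seen, and other words were also looked at.

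The 4 lower members with the word and the largest falls among the eIF3 and eIF2B genes are shown from 150 bases before to 30 bases after the start, with the word in capitals.
Eif2b4: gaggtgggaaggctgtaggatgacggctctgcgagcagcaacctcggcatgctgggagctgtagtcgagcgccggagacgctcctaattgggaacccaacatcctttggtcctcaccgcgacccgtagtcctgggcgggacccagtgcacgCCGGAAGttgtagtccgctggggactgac
Eif3g: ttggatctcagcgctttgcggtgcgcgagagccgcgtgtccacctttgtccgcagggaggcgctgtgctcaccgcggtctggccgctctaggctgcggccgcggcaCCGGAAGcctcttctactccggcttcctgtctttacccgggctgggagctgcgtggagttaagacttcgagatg
Eif3l: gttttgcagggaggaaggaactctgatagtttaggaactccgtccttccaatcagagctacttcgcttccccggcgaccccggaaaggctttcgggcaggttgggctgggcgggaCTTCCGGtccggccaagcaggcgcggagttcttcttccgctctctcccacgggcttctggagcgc
Eif3m: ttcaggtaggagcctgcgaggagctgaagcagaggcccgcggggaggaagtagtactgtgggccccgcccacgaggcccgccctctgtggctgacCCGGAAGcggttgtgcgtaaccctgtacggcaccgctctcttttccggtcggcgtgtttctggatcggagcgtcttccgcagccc
They lie at chr5:31193110-31193289, minus strand (Eif2b4), chr9:20898561-20898740, minus strand (Eif3g), chr15:79075073-79075252, plus strand (Eif3l) and chr2:105016998-105017177, minus strand (Eif3m), and each is written 5′ to 3′ along its gene. The first base of the word lies at position 2 after the start in Eif2b4 and at -44, -35 and -55 in Eif3g, Eif3l and Eif3m, and in Eif3l the capitals show its reverse complement. Where a gene had several annotated starts, the window shown was taken because it holds the word. The starts are those of the annotation and were not measured in embryos, and a match is a description of the letters, not a site.

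Other words were searched on both strands too, and none of them contains another. GGGCGG, the core of a GC box, was in 38 of 50 member promoters and in 65.4% of all. The E-box CACGTG was in 13 of 50 and in 11.8% of all, and TATAAA in 5 of 50 and in 8.95%. CTTTCC was in 11 of 50 and in 30.4%. A start at C followed by C or T to a run of at least 5, the form of terminal oligopyrimidine mRNAs, which mTOR controls, was found in 2 members (Eif2s3x and Eif3f) and in 2.84% of all genes. Only runs that begin at the annotated first base were counted, so that the other members were not shown to lack this form. These shares are descriptions of the windows and were not tested.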

How the data were processed

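Values in the gene table deposited by the authors are FPKM, and the deposited repeat table holds a signal (FPM, fragments scaled to library size), which served to check the labels with MERVL-int. The deposited gene table also holds the authors' log2 fold changes and adjusted p-values, whose test is not given in the sources used here. Tools and build, per the submitters' processing notes, include Trimmomatic 0.32, STAR 2.6.1a, SAMtools 1.7 and GRCm38 (mm10). For the counter, annotation, strand setting and treatment of reads with several positions, the sources used here give nothing.

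Deposited FPKM values were divided by a step per library and a factor per gene, which gave whole reads within 0.05 for 100% of values. The step did not follow the total of reads, and the FPKM were taken to be scaled by size factors, which is an inference. No gene of the table had a mean count below 25.0.

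Groups and replicate numbers came from the titles. The members, lists, tests and motifs were chosen with earlier results of these data known. The main test was limma 3.58.1 (R 4.3.3, trend and robust) on log2(FPKM + 1), a scale that understates changes of low genes, for the 12434 genes whose mean reached 0.5 FPKM, 4 pools against 4, with no covariate, two-sided and Benjamini-Hochberg adjusted over all genes. Lists were described by counts and medians. Alternatives were log2(FPKM + 0.1), a minimum mean of 5 FPKM or none, median-of-ratios and quantile scaling, limma without trend and robust moderation, the replicate number as a block, edgeR 4.0.16 and DESeq2 1.42.0 on recovered reads, the deposited p-values, and leaving out each pool, Dux KO replicates 1 and 2, or 3 and 4. Named genes were the 10 called members of largest change in each direction, the most abundant member of each factor, paralogue sets, kinases and the 2 largest called genes of each list in each direction; further members are named to account for all 64. Coordinates came from GENCODE M21. The code was tested on simulated data.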

Additional observations from a re-analysis of the deposited data

Results flagged for a closer look

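In each group of 4 pools, a member was marked where its highest or lowest pool stood apart from the other 3 by a gap that was large against the whole range of the group. This held for 6 of 128 combinations of member and group, where chance gives about 1 in 20, and 2 of the 6 genes were called. In WT replicate 4, Eif3d was at 12.9 FPKM against 5.98 to 6.72 FPKM in the other WT pools, and Eef1b2 at 31.2 FPKM against 25.2 to 26.0 FPKM. WT replicate 3 had Eif5a2 at 17.0 FPKM against 10.5 to 11.2 FPKM. In Dux KO replicate 2, Eif2a was at 38.3 FPKM against 55.0 to 55.6 FPKM in the other Dux KO pools, and Eif1 was at 77.3 FPKM against 54.2 to 55.3 FPKM. Eif4g2 was at 111.6 FPKM in Dux KO replicate 4 against 80.4 to 83.6 FPKM. The call of Eif3d was lost without WT replicate 4 (limma adjusted p = 0.0896) and that of Eif2a without Dux KO replicate 2 (limma adjusted p = 0.0839).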

How the results depend on the processing

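Of the 30 called members, 7 kept their call in every alternative (Eef1akmt4, Eef1e1, Eif2b4, Eif2s1, Eif3e, Eif3g and Eif3h) and 14 kept it whichever single pool was left out, and no called member changed sign. Leaving out 1 pool at a time gave 13 to 27 members lower and 1 to 3 higher, 11 to 23 related genes lower and 1 to 9 higher, and over all genes 1346 to 2132 lower and 1176 to 1917 higher. The lowest counts of lower genes came without WT replicate 4. Without Dux KO replicates 1 and 2 together, 7 members, 4 related genes and 443 of all genes were lower, and 0, 0 and 352 higher (limma; at unadjusted p under 0.05, 3 members and 5 related genes were higher), with 2 Dux KO pools left. Without Dux KO replicates 3 and 4 together, also with 2 Dux KO pools left, 27 members, 22 related genes and 2102 of all genes were lower. Then 2, 6 and 1842 were higher. DESeq2 called 5 members higher, edgeR 4, and a mean of at least 5 FPKM left 1032 of all genes higher, with fewer genes tested. With quantile normalization 19 members were lower, 17 of them among the 27, and 4 were higher, beside 1904 and 1850 of all genes.

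Signs turned for uncalled members only. Quantile normalization gave log2 fold changes of 0.12 for Eif5a, 0.12 for Eif4g2, 0.10 for Eef1a1 and -0.033 for Eif4ebp2. Without Dux KO replicates 3 and 4 together, values were 0.14 for Eif5a, -0.21 for Eif1ax, -0.10 for Eif4ebp2 and -0.046 for Eif4g3. Leaving out 1 pool gave -0.14 to 0.066 for Eif5a, -0.12 to 0.11 for Eif1ax, -0.10 to 0.15 for Eif4ebp2 and -0.17 to 0.011 for Eef1a1. The cause was not tested.

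With the replicate number as a block, 31 members were lower and 4 higher, as against 27 and 3. Over all genes 2591 were lower and 2141 higher, as against 2249 and 1933. Calls gained were those of Eif1a, Eif2s2, Eif4g1 and Eif5b as lower and Eif4ebp1 as higher (limma adjusted p = 0.0328 to 0.0477). The correlation of same-numbered pools' deviations was -0.12 to 0.33, and 4 of the 8 pools matched their own number best, so that the numbers were not taken to pair the samples. Among the single genes named, 1001 values under alternatives kept direction and call, 113 lost a call, 15 gained one and 19 turned sign. Counting error weighs most on low genes: Eif3j2 rested on 12 to 63 reads per pool and Eif5a on 6182 to 11302.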
